A study of Homo sapiens with 36 samples.

Results

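This account describes 9 genes of MHC class I antigen presentation, of 20802 genes counted, in LoVo cells treated with a MEK inhibitor. The genes were taken by name from the count matrix: the heavy chains HLA-B, HLA-C, HLA-E and HLA-F, the light chain B2M, the peptide transporter subunits TAP1 and TAP2, and the immunoproteasome subunits PSMB8 and PSMB9. LoVo is an established human colorectal cancer line, and MEK is the kinase that activates ERK. The cells were exposed for 24 h to a MEK inhibitor, named in the series as compound 33 of a published medicinal chemistry study, at 0.03, 0.1, 0.3, 1, 3, 10, 30, 100, 300 or 1000 nM, with 3 libraries at each dose. The reference was DMSO, the solvent, with 3 libraries on chip 1 and 3 on chip 2, which makes 36 libraries in 12 groups. Libraries were pooled 18 at a time, and the labels name the chip for the DMSO libraries only. All cells were of one line grown in the same serum-containing medium, and RNA was measured by amplifying a short stretch of each gene (Ion AmpliSeq) from 10 ng of total RNA.

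MHC class I molecules show peptides from inside the cell to CD8+ T cells and, for HLA-E, to natural killer cells. The proteasome cuts proteins into peptides, and an alternative form of it, the immunoproteasome, holds PSMB8, PSMB9 and PSMB10 in place of the constitutive subunits PSMB5, PSMB6 and PSMB7. The TAP1/TAP2 heterodimer pumps the peptides into the endoplasmic reticulum, where a loading complex places them on a heavy chain paired with B2M. Interferon raises most of these genes in many cell types, through interferon regulatory factors and the class I transactivator NLRC5. LoVo is known for inactivating mutations in B2M and for low class I protein at its surface, and the RNA values given here say nothing of protein.

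Library depth was 2972186 to 4751839 counts (median 3952427). DUSP6, a feedback phosphatase gene that ERK signalling switches on, averaged 1.89 ± 0.468 CPM at 1000 nM (SD, n = 3), against 64.2 ± 3.27 CPM in DMSO (SD over 3 replicate numbers, each the mean of both chips), where CPM are counts scaled to a common library size. Its log2 fold change was -5.09 (SE 0.197). All 9 markers of intestinal epithelium had counts, with sums of 2991 to 3247 CPM at 1000 nM and 3403 to 3629 CPM in DMSO. Single markers moved both ways. CDX2, CDH1, VIL1 and CDX1 averaged 283, 433, 98.6 and 3.21 CPM at 1000 nM, against 138, 250, 57.0 and 0.625 CPM in DMSO. KRT8, KRT18 and CDH17 averaged 1117, 478 and 223 CPM at 1000 nM, against 1520, 669 and 350 CPM in DMSO. The T cell and pan-leukocyte markers CD3E, CD2 and PTPRC were at 0 in both. Over all 9 leukocyte markers, of which 4 were at 0 at 1000 nM and 5 in DMSO, the sum was 77.5 to 96.3 CPM at 1000 nM and 16.5 to 23.8 CPM in DMSO, most of it from LYZ, which epithelial cells also express. The macrophage marker CD68 averaged 15.2 CPM at 1000 nM and 8.76 CPM in DMSO. The 7 fibroblast markers summed to 41.0 to 42.4 CPM at 1000 nM and 3.28 to 4.51 CPM in DMSO, with THY1 and COL1A2 at 0 in both. The highest of them at 1000 nM were COL3A1, COL1A1 and LUM. Their means there were 16.8, 12.9 and 10.9 CPM, against 1.24, 1.95 and 0.632 CPM in DMSO. The 6 class II markers summed to 4.34 to 5.91 CPM at 1000 nM and 1.57 to 5.78 CPM in DMSO, from 56 and 92 counts. The leukocyte and fibroblast sums were thus higher at 1000 nM, where class I genes also differed from DMSO, and their part in the class I results was not tested. In bulk RNA, fewer cells of a kind and less RNA per cell cannot be told apart.

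Some libraries stood apart from their own group. The median absolute log2 difference of a library from its group mates was 0.257 for replicate 1 of 1 nM, 0.237 for replicate 1 of 1000 nM and 0.203 for replicate 2 of 0.1 nM, against 0.106 in the library closest to its mates. These 3 libraries, a set taken from an earlier analysis of the same data, are kept, and results that change without them are given both ways. Replicate 3 of 1000 nM, at 0.209, was in the same range, and values that rest on it are given without it too.

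The stretch just upstream of a gene's start is where interferon regulatory factors bind in many class I genes, and it is shown here for the 4 genes whose RNA changed with dose and for which a sequence was at hand. The windows hold the 250 bases before the annotated start, from RefSeq on GRCh38.p14, written 5′ to 3′ on the gene's own strand. Capitals mark matches to a core that interferon regulatory factors recognise, GAAA followed by any 2 bases and a further GAAA, searched on both strands. TAP1 lies on the minus strand (first of its RefSeq starts, chr6:32853705-32853954), PSMB9 on the plus strand (chr6:32853942-32854191), TAP2 on the minus strand (chr6:32838740-32838989) and B2M on the plus strand of another chromosome (chr15:44711267-44711516).
TAP1: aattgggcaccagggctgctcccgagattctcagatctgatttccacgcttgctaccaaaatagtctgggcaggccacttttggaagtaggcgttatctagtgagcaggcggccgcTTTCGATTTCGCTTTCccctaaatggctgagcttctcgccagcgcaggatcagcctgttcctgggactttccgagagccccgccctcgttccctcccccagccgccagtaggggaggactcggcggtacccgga
PSMB9: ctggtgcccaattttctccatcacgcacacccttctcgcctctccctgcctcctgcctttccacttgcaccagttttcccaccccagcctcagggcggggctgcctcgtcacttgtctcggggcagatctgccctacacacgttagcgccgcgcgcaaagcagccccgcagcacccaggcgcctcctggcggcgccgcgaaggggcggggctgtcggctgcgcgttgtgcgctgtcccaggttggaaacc
TAP2: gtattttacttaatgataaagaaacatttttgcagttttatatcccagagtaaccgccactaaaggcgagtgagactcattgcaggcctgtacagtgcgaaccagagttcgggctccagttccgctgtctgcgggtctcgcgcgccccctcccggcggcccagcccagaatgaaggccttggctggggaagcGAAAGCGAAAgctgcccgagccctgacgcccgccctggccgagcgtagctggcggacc
B2M: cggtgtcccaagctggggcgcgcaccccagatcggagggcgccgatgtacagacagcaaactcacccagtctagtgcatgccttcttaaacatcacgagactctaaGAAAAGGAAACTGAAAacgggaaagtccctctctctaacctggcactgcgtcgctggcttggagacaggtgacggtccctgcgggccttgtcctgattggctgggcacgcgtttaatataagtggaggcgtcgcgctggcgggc
The TAP1 window holds 2 overlapping matches, which read TTTCGATTTC and TTTCGCTTTC on this strand and lie 134 to 125 and 128 to 119 bases before the start. TAP2 has 1 match, GAAAGCGAAA, at 58 to 49 bases before its start, and B2M has 2 overlapping ones, GAAAAGGAAA and GAAACTGAAA, at 144 to 135 and 138 to 129 bases. PSMB9 has none in this window, but its start and that of TAP1 point away from each other and lie 488 bases apart, so that the windows meet and the TAP1 matches also lie upstream of PSMB9. Of 35116 RefSeq windows of the same length, 3.02% hold this motif.

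A window was found for 8 of the 9 genes and not for HLA-E. HLA-F held 1 match to the same core, 156 to 147 bases before its start. No window held the closer form with 1 base between both GAAA, which 2.69% of all windows hold. The STAT-type motif TTC, any 3 bases, GAA, present in 6.57% of all windows, had a match upstream of the second RefSeq start of TAP1 and of PSMB8. The NF-kB-type motif GGG, any 2 bases, TTCCC, present in 1.97%, matched in HLA-B alone, as GGGGATTCCC. Forms outside these patterns, such as gggactttcc in the TAP1 window, were not searched for. The matches given are matches of letters, and no binding was measured.

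**Figure D1:**
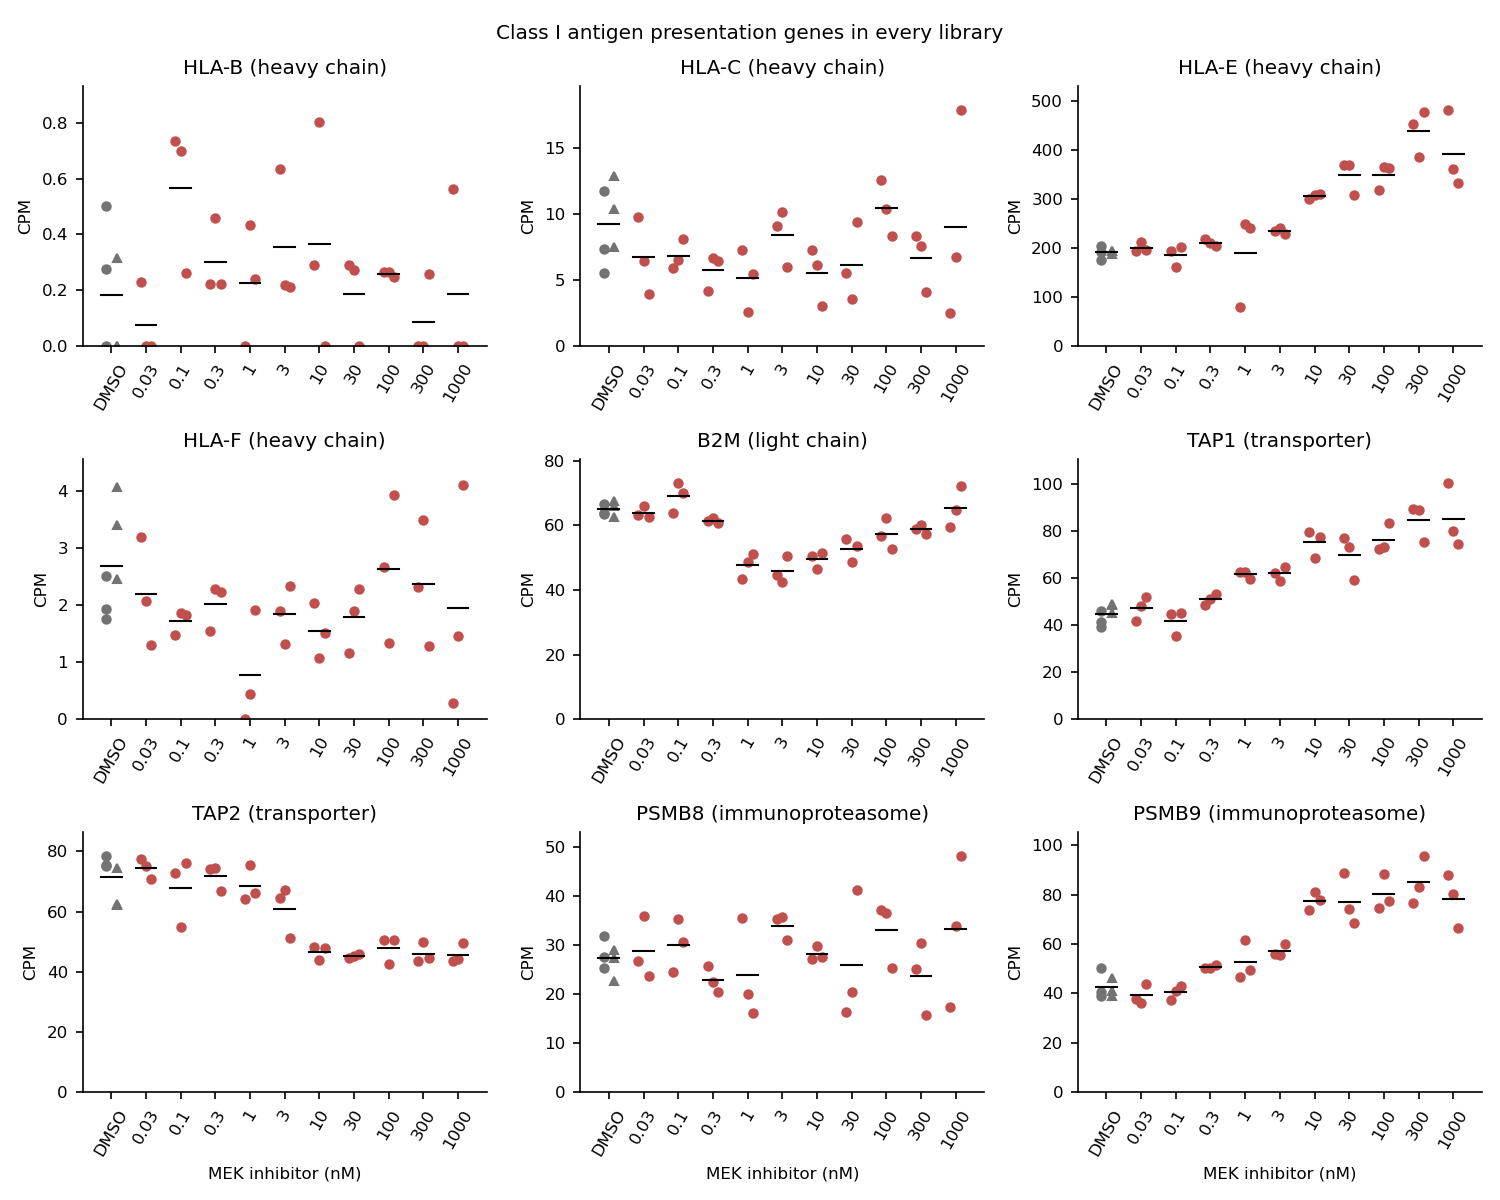
CPM of each class I gene (vertical axes) in every library, by dose in nM in equal steps with DMSO at the left end; each point is a library (DMSO in grey, chip 1 as circles and chip 2 as triangles) and the short bars are group means. HLA-E, TAP1 and PSMB9 climb with dose, TAP2 declines, and HLA-B, HLA-C, HLA-F and PSMB8 show no ordered course. B2M is lowest between 1 and 30 nM and still lies below the DMSO libraries at 100 and 300 nM.

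At every dose the treated libraries were set against DMSO of chip 1 and against DMSO of chip 2 with edgeR's quasi-likelihood test, and a gene was called when the larger p-value, adjusted by Benjamini-Hochberg over all 12102 genes tested, was below 0.05 and both differences had the same sign. HLA-B did not pass the filter on low counts, so 8 of the 9 genes were tested. At 0.03, 0.1 and 0.3 nM none of the 8 was called, none had an unadjusted p below 0.05, and 0% of all genes were called. At 1 nM 1 gene was called, B2M, lower (7.97% of all genes were called). At 3 nM 3 of 8 were called (13.3% of all genes), with TAP1 and PSMB9 higher and B2M lower. At 10 nM 5 of 8 were called (26.8% of all genes) and at 30 nM again 5 (36%), with HLA-E, TAP1 and PSMB9 higher and TAP2 and B2M lower. At 100 nM (37.2% of all genes), 300 nM (45.1%) and 1000 nM (41.8%) 4 of 8 were called: HLA-E, TAP1 and PSMB9 higher and TAP2 lower. The share of the class I genes called at the 3 highest doses lies near the share of all genes. The median log2 fold change at 1000 nM was 0.16 over the 8 genes and 0.01 over all genes tested.

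**Figure D2:**
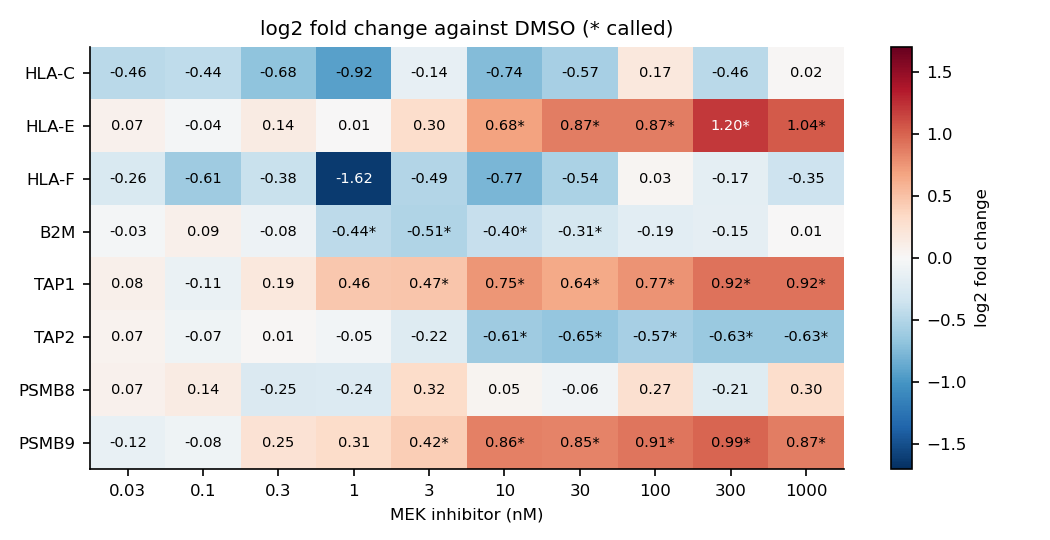
Log2 fold change of each tested class I gene against the mean of both DMSO groups (colour and number), with genes down the page and dose in nM across; cells with an asterisk were called. Calls begin at 1 nM with B2M, TAP1 and PSMB9 join at 3 nM and HLA-E and TAP2 at 10 nM, and B2M is no longer called from 100 nM on.

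Of the heavy chains, HLA-E, the ligand of the NKG2A and NKG2C receptors of natural killer cells, was the one called. HLA-E had 482, 361 and 333 CPM in the 1000 nM libraries, against 176 to 203 CPM with a median of 193 in the 6 DMSO libraries. The groups did not overlap, as was so for 22.9% of all genes in this direction, and replicate 1 was the highest of the treated libraries. The mean was 392 ± 79.2 CPM at 1000 nM and 191 ± 7.12 CPM in DMSO (SD, n = 3 each), a log2 fold change of 1.04 (SE 0.22, adjusted p = 0.000425), or 2.05-fold. Without replicate 1 of 1000 nM the log2 fold change was 0.86, and without replicate 3 it was 1.14.

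Over all libraries the midpoint dose of HLA-E could not be placed within the limit set for its error (SE of log10 0.229). Its mean was 234 CPM at 3 nM, 306 CPM at 10 nM, 349 CPM at both 30 and 100 nM, and 439 CPM at 300 nM. All 3 libraries of each of these doses lay above every DMSO library, as did those of 14% of all genes for 3 nM, 19.7% for 10 nM, 22.3% for 30 nM, 23.3% for 100 nM and 26.1% for 300 nM. The log2 fold change of 0.30 at 3 nM was not called (adjusted p = 0.522), that of 0.68 at 10 nM was (SE 0.22, adjusted p = 0.0236), and at 300 nM it reached 1.20 (SE 0.22, adjusted p = 7.45e-05). The call at 10 nM was lost when any 1 of the 10 nM or DMSO replicates was left out, with adjusted p from 0.0531 to 0.0903 and log2 fold changes from 0.65 to 0.70. At 1 nM the libraries had 79.3, 250 and 241 CPM, so that replicate 1 lay below every DMSO library and the others above every one. Without the 3 libraries that stood apart, HLA-E was called at 1 nM (log2 fold change 0.36, adjusted p = 0.00467), at 3 nM (0.30, adjusted p = 0.00542) and at 300 against 30 nM (adjusted p = 0.0102). Its midpoint dose was then 5.76 nM, with an SE of 0.118 for its log10.

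The classical heavy chains and HLA-F were counted too shallowly or too unevenly for a call. HLA-B, which presents to CD8+ T cells, had 2 counts in the 3 libraries at 1000 nM and 4 in the 6 DMSO libraries, with 36 counts in all 36 libraries and at most 3 in any, so no fold is given. HLA-C, which also binds KIR receptors of natural killer cells, had 2.53, 6.73 and 17.9 CPM at 1000 nM, against 5.50 to 12.9 CPM in DMSO. The 1000 nM libraries spread on both sides of the DMSO range, with replicate 3 above it and replicate 1 below it, and the log2 fold change was 0.02 (SE 0.457; 95% interval -0.93 to 0.96). Without replicate 3 it was -1.01, also not called. HLA-F, a class I molecule of restricted expression, had 0.281, 1.46 and 4.10 CPM at 1000 nM, from 1, 5 and 17 counts, against 1.75 to 4.08 CPM in DMSO, with a log2 fold change of -0.35 (SE 0.543; 95% interval -1.48 to 0.77). Without replicate 1 of 1000 nM it was 0.13, and without replicate 3 it was -1.61. Heavy chain genes differ between people and resemble each other, so that an amplicon primed on a reference allele may miss the cell line's own allele or count a relative, and the levels of HLA-B, HLA-C, HLA-E and HLA-F are uncertain in this respect.

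B2M, the light chain common to the heavy chains, dipped at intermediate doses. At 3 nM it had 44.5, 42.4 and 50.5 CPM, against 62.7 to 67.5 CPM in the 6 DMSO libraries, with every treated library below every DMSO one, as was so for 14.4% of all genes. The log2 fold change was -0.44 at 1 nM (SE 0.106, adjusted p = 0.00505), -0.51 at 3 nM (SE 0.105, adjusted p = 0.0004), -0.40 at 10 nM (SE 0.107, adjusted p = 0.00407) and -0.31 at 30 nM (SE 0.106, adjusted p = 0.0208). At the higher doses the treated libraries moved back toward the DMSO level: 52.6 to 62.4 CPM at 100 nM, 57.4 to 60.1 CPM at 300 nM and 59.4, 64.6 and 72.4 CPM at 1000 nM. At 100 and 300 nM every library still lay below every DMSO one, as was so for 2842 and 3189 of 12102 genes. The same held at 0.3 nM, for 584 of 12102 genes, and B2M was not called at these doses. The log2 fold change at 1000 nM was 0.01, with a 95% interval from -0.20 to 0.23, which leaves out the size seen at 3 nM.

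The downward step of B2M was called between doses as well. From 0.3 to 3 nM its log2 difference (3 over 0.3 nM) was -0.42 (SE 0.102, adjusted p = 0.0029), where 13.1% of all genes were called. The return was gradual, with 0.20 (SE 0.106) for 30 over 3 nM, 0.16 (SE 0.105) for 300 over 30 nM and 0.20 (SE 0.103) for 1000 over 100 nM, none of them called (18.2%, 0.512% and 0.00826% of all genes). The calls at 1, 3 and 10 nM held without any 1 library of the same dose, with adjusted p up to 0.0315. The call at 30 nM was lost without replicate 2 of 30 nM (adjusted p = 0.108) and without replicate 2 of DMSO (adjusted p = 0.0743).

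The transporter subunits moved in opposite directions. TAP1 had 100, 80.2 and 74.6 CPM at 1000 nM, against 39.1 to 48.8 CPM in DMSO. The groups did not overlap, as was so for 22.9% of all genes in the upward direction. Its mean was 85.1 ± 13.6 CPM at 1000 nM and 44.8 ± 2.67 CPM in DMSO (SD, n = 3 each), a log2 fold change of 0.92 (SE 0.122, adjusted p = 1.42e-07), or 1.90-fold. TAP2 had 43.6, 44.2 and 49.5 CPM at 1000 nM, against 62.1 to 78.4 CPM in DMSO, again without overlap, as was so for 22.4% of all genes in this direction. Its mean was 45.8 ± 3.23 CPM at 1000 nM and 71.4 ± 3.07 CPM in DMSO, a log2 fold change of -0.63 (SE 0.121, adjusted p = 0.000296). Both calls held under each of the 17 alternatives tried, with log2 fold changes from 0.78 to 1.01 for TAP1 and from -0.74 to -0.53 for TAP2.

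The ratio of TAP1 to TAP2 counts within a library does not depend on how libraries are scaled. This ratio was examined after the values of both genes were seen, and it has no test. Set to 1 at the DMSO mean, it was 2.40, 2.88 and 3.66 in the 1000 nM libraries, in order of size, and 0.792 to 1.24 in the 6 DMSO libraries. Its geometric mean over the libraries was 1.13 at 0.3 nM, 1.43 at 1 nM and 1.63 at 3 nM. It then lay between 2.44 and 2.56 from 10 to 100 nM, and reached 2.92 at 300 nM and 2.94 for 1000 nM. All libraries from 1 nM on lay above the DMSO range.

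The subunits were first called at different doses, and the difference in dose was not tested. All 3 TAP1 libraries at 1 nM, at 62.7, 62.5 and 59.7 CPM, already lay above the DMSO libraries, as did those of 10.6% of all genes, with a log2 fold change of 0.46 (SE 0.124) and an adjusted p of 0.0501. TAP1 was first called at 3 nM, at 0.47 (SE 0.123, adjusted p = 0.0257). TAP2 was first called at 10 nM, where its libraries had 48.4, 43.8 and 48.0 CPM, at -0.61 (SE 0.121, adjusted p = 0.00116). Its log2 difference of 30 over 3 nM was -0.43 (SE 0.118, adjusted p = 0.00824), and this call was lost without replicate 1 of 3 nM (adjusted p = 0.0511) or replicate 2 (adjusted p = 0.0617). The labels do not say whether the 3 and 30 nM libraries shared a chip. TAP2 at 30 nM was -0.75 against DMSO of chip 1 and -0.55 against DMSO of chip 2. The part of the chip in this step was not tested. A curve of base and top with a midpoint dose (EC50) gave 1.31 nM for TAP1 (0.899 to 1.90 nM within 1 SE) and 3.54 nM for TAP2 (2.36 to 5.30 nM). The call of TAP1 at 3 nM was lost without replicate 1 or 3 of 3 nM (adjusted p = 0.0771 and 0.115) and without any 1 DMSO replicate (0.0731 to 0.142).

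PSMB9 rose and PSMB8, encoded close by in the MHC region, was not called. PSMB9, a catalytic subunit of the immunoproteasome, had 88.1, 80.2 and 66.6 CPM at 1000 nM, against 38.8 to 50.4 CPM in DMSO. The mean was 78.3 ± 10.9 CPM at 1000 nM and 42.7 ± 4.85 CPM in DMSO (SD, n = 3 each), a log2 fold change of 0.87 (SE 0.128, adjusted p = 1.92e-07), or 1.83-fold. From 10 nM on the level stayed near this, with means between 77.1 CPM at 30 nM and 85.0 CPM at 300 nM. The midpoint dose was 2.05 nM, with an SE of 0.136 for its log10.

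At 3 nM PSMB9 had 56.1, 55.6 and 60.1 CPM, each above every DMSO library, as was so for 14% of all genes, with a log2 fold change of 0.42 (SE 0.129, adjusted p = 0.0233). This call was lost without replicate 1 or 3 of 3 nM (adjusted p = 0.0569 and 0.11) and without replicate 1 or 3 of DMSO (0.196 and 0.135). The log2 difference of 30 over 3 nM was 0.43 (SE 0.12, adjusted p = 0.0095), and it was not called without replicate 1 of 30 nM (0.31, adjusted p = 0.112). Neither 300 over 30 nM nor 1000 over 100 nM was called for PSMB9, TAP1, TAP2 or HLA-E when all libraries were kept.

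PSMB8, which cuts after hydrophobic residues, had 17.4, 33.9 and 48.0 CPM at 1000 nM, against 22.7 to 31.8 CPM in DMSO. Replicate 1 lay below the DMSO range and the others above it, and the log2 fold change was 0.30 (SE 0.324; 95% interval -0.37 to 0.96). Without replicate 3 of 1000 nM it was -0.09. Its libraries also spread widely at 30 nM, with 16.3, 20.4 and 41.2 CPM, and less at 10 nM, with 27.1, 29.7 and 27.6 CPM. Among the doses where PSMB9 was called, the 95% interval of PSMB8 holds the log2 fold change of PSMB9 at 3, 100 and 1000 nM. At 3 nM it was -0.34 to 0.97, against 0.42 for PSMB9, and at 100 nM -0.40 to 0.94, against 0.91. The interval of PSMB8 leaves the PSMB9 value out at 10 nM (-0.64 to 0.73, against 0.86), 30 nM (-0.74 to 0.63, against 0.85) and 300 nM (-0.90 to 0.49, against 0.99). PSMB9 has an error too, with 95% intervals of 0.59 to 1.13 at 10 nM, 0.58 to 1.11 at 30 nM and 0.73 to 1.26 at 300 nM. The intervals of both genes overlap at 10 and 30 nM and not at 300 nM. The difference between the genes was not tested.

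**Figure D3:**
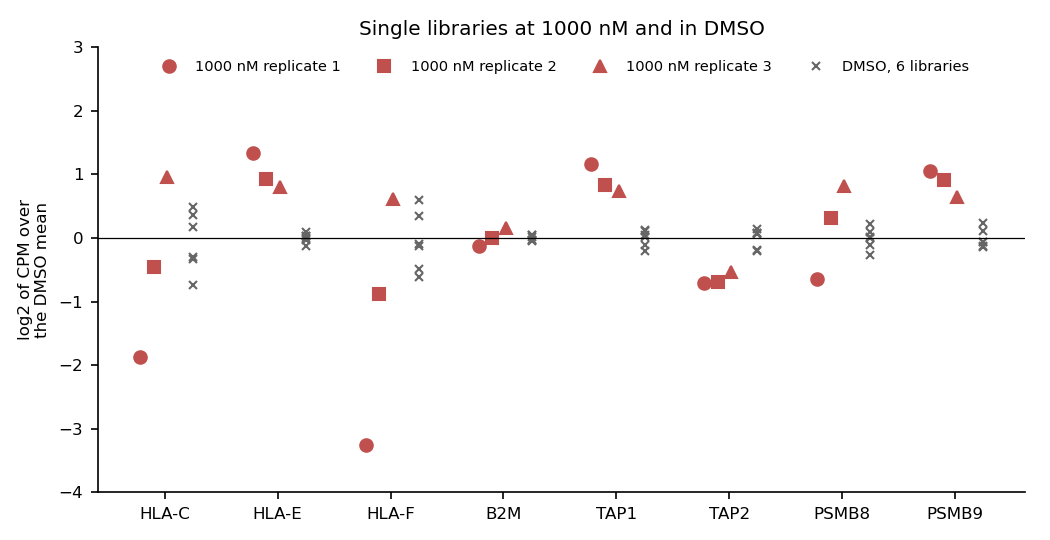
Log2 of CPM over the DMSO mean (vertical axis) for the tested class I genes, with the 3 libraries at 1000 nM to the left and the 6 DMSO libraries to the right of each gene. Replicate 1 is the highest 1000 nM library for HLA-E, TAP1 and PSMB9 and the lowest for HLA-C, HLA-F, B2M, TAP2 and PSMB8, and replicate 3 the reverse.

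The 3 libraries at 1000 nM had opposite orders in 2 sets of class I genes. Replicate 1 was the highest for HLA-E, TAP1 and PSMB9 and the lowest for HLA-C, HLA-F, B2M, TAP2 and PSMB8, while replicate 3 was the lowest for HLA-E, TAP1 and PSMB9 and the highest for the others. These are the libraries at 0.237 and 0.209 in the measure of distance from their mates. Without the 3 libraries that stood apart, which include replicate 1, the log2 fold changes at 1000 nM were 0.86 for HLA-E, 0.79 for TAP1 and 0.77 for PSMB9, and all remained called.

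Other genes of the pathway were described from lists of 28 genes by role, 26 of which were tested. At 1000 nM 14 of the 26 were called higher and 4 lower, where 21.2% of all genes were called higher and 20.7% lower. At 3 nM 6 were higher and 1 lower (6.66% and 6.68% of all genes), at 10 nM 6 and 2 (13.5% and 13.3%), and at 100 nM 14 and 3 (18.4% and 18.8%). The median log2 fold change of the 26 at 1000 nM was 0.43, beside 0.01 for all genes.

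Of 7 genes of peptide loading and trimming, 5 were called higher at 1000 nM (21.2% of all genes) and none lower (20.7%). CANX, the chaperone calnexin that holds new heavy chains, was chosen after its values were seen, as the loading gene called lower at other doses: -1.11 at 10 nM (SE 0.355, adjusted p = 0.0262), -1.29 at 30 nM (SE 0.357, adjusted p = 0.00714) and -1.50 at 300 nM (SE 0.359, adjusted p = 0.00168). At 1000 nM its libraries ran from 192 to 861 CPM, against 759 to 966 CPM in DMSO, and its log2 fold change of -0.78 was not called (SE 0.351, adjusted p = 0.0971). TAPBPL, a tapasin relative that edits the bound peptides, averaged 49.9 ± 6.70 CPM at 1000 nM and 19.6 ± 0.598 CPM in DMSO, a log2 fold change of 1.35 (SE 0.149, adjusted p = 2.77e-10). It was already called at 3 nM, at 0.66 (SE 0.153). TAPBP, tapasin itself, which bridges TAP and the heavy chain, rose by 1.38 (SE 0.379, adjusted p = 0.00335) from few counts, with 3.66 to 11.3 CPM at 1000 nM and 1.88 to 4.43 CPM in DMSO. That call was lost without replicate 3 of 1000 nM (1.02, adjusted p = 0.0599). CALR, the chaperone calreticulin of the loading complex, rose by 0.63 (SE 0.13, adjusted p = 0.000301).

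The proteasome genes moved both ways, with 2 of 7 called higher and 3 lower at 1000 nM (21.2% and 20.7% of all genes). PSMB10, the remaining immunoproteasome subunit, averaged 39.6 ± 1.53 CPM at 1000 nM and 20.2 ± 2.25 CPM in DMSO (SD, n = 3 each), a log2 fold change of 0.97 (SE 0.152, adjusted p = 6.51e-07). Of the constitutive subunits these replace, PSMB5 fell by 0.44 (SE 0.125, adjusted p = 0.00552) and PSMB6 by 0.39 (SE 0.105, adjusted p = 0.00516), and PSMB7 was not called, at 0.11 (SE 0.101). The call of PSMB6 was lost without replicate 3 of 1000 nM (-0.30, adjusted p = 0.0554). PSME3, a nuclear activator of the proteasome, fell by 0.70 (SE 0.126, adjusted p = 2.72e-05).

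Each immunoproteasome subunit takes the place of a given constitutive one, PSMB9 that of PSMB6, PSMB10 that of PSMB7 and PSMB8 that of PSMB5. Ratios of counts within a library, set to 1 at the DMSO mean and chosen after the values were seen, are given without a test. PSMB9 to PSMB6 had a geometric mean of 2.41 in the 1000 nM libraries, with 2.29 in the lowest, and 0.865 to 1.19 in DMSO. PSMB10 to PSMB7 was 1.68, 1.78 and 2.07 at 1000 nM and 0.774 to 1.22 in DMSO. PSMB8 to PSMB5 was 1.01, 1.59 and 2.26 at 1000 nM and 0.833 to 1.26 in DMSO. The ratios with PSMB9 and PSMB10 lay outside the DMSO range in every 1000 nM library, and that with PSMB8 in all but the lowest.

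**Figure D4:**
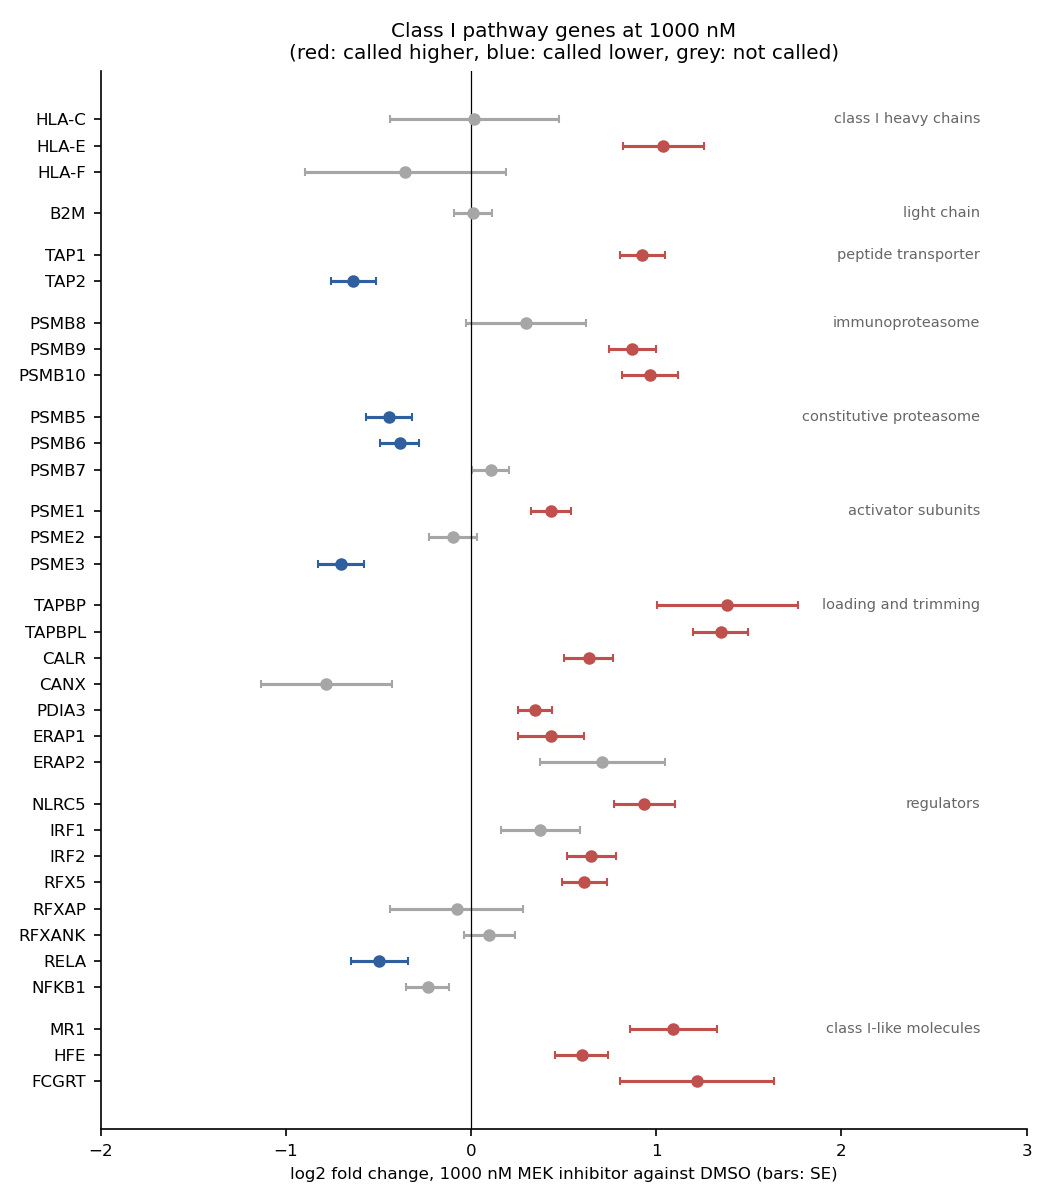
Log2 fold change at 1000 nM against DMSO (horizontal axis, bars 1 SE) for the tested class I genes and for other tested genes of the pathway, grouped by role; red was called higher, blue lower, and grey not called. Most loading genes and the regulator NLRC5 lie to the right of 0, and TAP2, PSMB5, PSMB6, PSME3 and the regulator RELA lie to the left. The loading gene CANX and HLA-F, which were not called, also lie to the left.

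Among 9 regulators 4 were called higher and 1 lower at 1000 nM (21.2% and 20.7% of all genes). RELA, named after its values were seen, averaged 66.0 ± 10.0 CPM at 1000 nM and 93.2 ± 3.59 CPM in DMSO. NLRC5, the transactivator of class I genes, averaged 40.4 ± 3.54 CPM at 1000 nM and 21.1 ± 1.53 CPM in DMSO, a log2 fold change of 0.93 (SE 0.165, adjusted p = 7.06e-06), and was called from 3 nM among the doses examined (0.54, SE 0.166, adjusted p = 0.0216). RFX5, a subunit of the complex that NLRC5 needs at class I promoters, rose by 0.61 (SE 0.122), and IRF2, an interferon regulatory factor, by 0.65 (SE 0.132). IRF1, the factor that interferon gamma induces most directly, was not called, at 0.37 (SE 0.214, adjusted p = 0.414), with a 95% interval from -0.07 to 0.82; against the DMSO libraries of chip 2 alone it was (0.52, adjusted p = 0.0418). Of 5 class I-like molecules 3 were tested and all were called higher (21.2% of all genes). Among them were MR1, which presents vitamin B metabolites, at 1.09 (SE 0.234), and HFE, the iron regulator, at 0.60 (SE 0.143). The call of HFE was lost without replicate 2 of DMSO (0.51, adjusted p = 0.0545).

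Interferon signalling genes were listed because interferon is the best known inducer of these genes. Of 9 interferon targets 8 were tested, and all 8 were called higher at 1000 nM (21.2% of all genes), with MX1 at 1.32 (SE 0.12) and ISG15 at 1.28 (SE 0.131). At 3 nM 4 of the 8 were called higher (6.66% of all genes) and at 10 nM 6 (13.5%). Of 11 receptors, kinases and factors 4 were higher and 2 lower at 1000 nM (21.2% and 20.7% of all genes), with STAT2 at 0.97 and IRF9 at 1.58, both parts of the interferon-stimulated complex. The receptor genes IFNGR1 and IFNGR2, named after their values were seen, had lower means at 1000 nM. IFNGR1 averaged 24.3 CPM there and 42.8 CPM in DMSO, and IFNGR2 18.1 and 30.0 CPM. Of 7 interferon ligand genes 6 were at 0 in the 1000 nM libraries and 5 in DMSO. The ligand counts were 51 at 1000 nM, all of IFNE, and 75 in DMSO, 72 of them of IFNE, which was not called (0.43, SE 0.415).

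The genes whose means over 11 conditions, DMSO and the 10 doses, followed those of HLA-E, TAP1 and PSMB9 most closely were sought among 10407 genes, by Pearson's r of mean log2 CPM. The points share their libraries and most of them lie on one dose course, so r is a description. For TAP1 the nearest was BST2, an interferon-induced membrane protein that tethers virus particles, with r = 0.988 and a log2 fold change of 0.91 (SE 0.106) at 1000 nM, ahead of LOC728743 and OLFML2A at 0.986 and 0.985. For PSMB9 the nearest were LPCAT3 and MAPK3, at 0.992 and 0.988. For HLA-E they were RAB11FIP1, SPINT1 and CTNNB1, at 0.994, 0.990 and 0.989. The HLA-E values include the low library at 1 nM, which enters its mean there.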

How the data were processed

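The authors deposited raw counts, 1 whole number per gene and library, from amplicon libraries (Ion AmpliSeq) per the labels' protocols. Per the submitters' processing notes the build was hg19. Aligner and counter: not given in the sources used here. Of 20812 rows, 10 spike-in rows held 0 counts and were left out. The matrix equalled the single files in 36 of 36 libraries.

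Counts were fitted with edgeR 4.0.16 in R 4.3.3: filterByExpr left 12102 genes, TMM scaling, a robust quasi-likelihood model with 12 groups (24 residual df). Doses were compared with each DMSO group, the larger p-value was adjusted by Benjamini-Hochberg over all genes tested, and a gene was called below 0.05 with both signs equal. Fold changes are relative to the average of the DMSO groups and carry the larger SE. Steps between doses came from the same model. They were not checked against a difference between chips, since the labels name no chip for treated libraries. DMSO means and SDs are over 3 replicate numbers, each averaged over both chips, since same-numbered DMSO libraries deviated together (r 0.140 to 0.287 over 9050 genes). Intervals are 95%. Log2 values for curves use a prior count of 1, and a midpoint dose is printed where the SE of its log10 was below 0.2. Amplicons amplify unequally, so levels of different genes are not compared. Counts are not corrected for duplicate molecules, so the precision that depth gives covers counting error only.

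On simulated data for 1000 nM against DMSO (11937 genes), 10% of genes with a log2 change of 0.5 were recovered, 88% of those changed by 1 and 100% of those changed by 2, with 0 false calls. For 1000 against 100 nM these were 20%, 90% and 100%, with 11 false calls. The simulation changed 200 genes, none of low counts, and gave every gene the same relative spread beyond counting error. In the data 41.8% of all genes were called at 1000 nM, so these shares need not hold there or for genes of wide spread. The labels do not say how cultures were separated, so p-values rest on the spread among these samples, which may be partly technical.

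The 9 genes, the other lists and the tests were chosen with earlier results of these data known. Among the other pathway genes, 9 were set to be named and up to 6 more by adjusted p at 1000 nM; 2 genes each were taken from interferon signalling and targets. Some genes that these rules name are not reported here. Promoter sequences are RefSeq's on GRCh38.p14. Alternatives were DESeq2 1.42.0 and its size factors, other filters, other uses of DMSO, a fit of only the libraries compared, a replicate block, and leaving out each replicate or the 3 libraries that stood apart.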

Additional observations from a re-analysis of the deposited data

How the results depend on the processing

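At 10, 30, 100, 300 and 1000 nM the number of class I genes called stayed within 1.5 times that given under every alternative run. At 1 nM, where 1 was called, it was 2 with DMSO of chip 1 alone, 3 with chip 2 alone, 4 against the mean of both, 2 with a filter of 1 CPM in 3 libraries, 3 with DMSO summed over chips, 3 without the 3 libraries that stood apart, 2 with the replicate number as a block, and 1 to 2 with a replicate left out. At 3 nM, where 3 were called, leaving out a replicate gave 1 to 3, and for 30 against 3 nM, where 2 were called, 1 to 2. For 3 against 0.3 nM, where 1 was called, it was 2 with no filter, 3 with only the libraries compared and 2 without the 3 libraries. For 300 against 30 nM, where 0 were called (edgeR), it was 1 without these libraries. The replicate block changed no other count by over 1.5 times. In 0 of the pairings of a dose with DMSO did every same-numbered pair deviate together at a correlation over 0.1. Treated and DMSO libraries were therefore not paired by number, though this rule cannot exclude a common origin. For 0.3 nM the correlations were 0.180, 0.053 and 0.097 with DMSO of chip 1. With DMSO of chip 2 they were 0.164, 0.038 and 0.114.

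Uncalled values near 0 changed sign. At 1000 nM, HLA-C was -0.14 with DMSO of chip 2 alone, -0.0076 with no filter, -0.012 with the 1 CPM filter, -0.010 with DESeq2, and -1.01 to 0.44 with a replicate left out (-0.035 and -0.18 without replicate 2 or 3 of DMSO). B2M was -0.016 with no filter, -0.024 with the 1 CPM filter, -0.0065 with DMSO summed, and -0.074 to 0.069 with a replicate left out (-0.00098 and -0.017 without replicate 1 or 3 of DMSO). With a replicate left out HLA-F was -1.61 to 0.13, PSMB8 -0.093 to 0.59 and PSMB7 -0.0043 to 0.20, and HLA-F was 0.14 without the 3 libraries. The call of B2M at 30 nM was lost with no filter (adjusted p = 0.058). The causes were not tested. With 3 libraries a dose, changes near 0.5 on the log2 scale were mostly missed in the simulation, whose settings differ from the data. Genes not called cannot be taken as unchanged, and HLA-B, HLA-C and HLA-F are limited by few counts.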
